A study of Sus scrofa with 40 samples.

Results

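The comparison described here sets Basque (B) against Large White (LW) pigs that were kept in conventional housing. Its members are the samples whose rearing condition is given as conventional, replicates 1 to 10 of each breed, which makes 20 of the 40 samples of the study. The other 20 pigs, 10 per breed, lived in an alternative system with bedding and an outdoor area, and they enter only where named. B pigs grow slowly and fatten readily, and LW pigs have been selected for rapid growth of muscle. All pigs were castrated males with a live weight given as 145 kg, and conventional housing meant indoor pens on a slatted floor. The B pigs were older when they reached this weight. Feed was allotted alike to both breeds by live weight, whereas the paper puts the appetite of LW pigs much higher. Breed, age, growth rate and feeding therefore cannot be told apart in these data. RNA of the whole Longissimus muscle of each pig was labelled with Cy3 and hybridised beside a Cy5-labelled pool of the RNA of all 40 samples, on arrays of 15198 probes of 60 bases.

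The Longissimus is a back muscle built mainly of fast fibres that live on glycogen and glycolysis. Such a fibre buffers its ATP with creatine kinase, senses a shortage of energy through the AMP-activated kinase, and contracts by the sliding of actin and myosin filaments when the sarcoplasmic reticulum releases calcium. The fibres are held in a sheath of collagens and other matrix proteins that fibroblasts secrete, and fat cells between the fibre bundles store the intramuscular fat.

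Each level given below is a log2 ratio of pig over pool with the median of its array subtracted, and each difference is B minus LW, so that a negative difference means a higher level in LW. Differences come from 1 linear model per probe with breed and slide as terms (limma), with their standard error (SE) and a Benjamini-Hochberg adjusted p over all tested probes. Testing required a Cy3 signal well above background in 5 or more of the 10 pigs of either breed, which held for 12374 probes, and a probe was called when its adjusted p was under 0.05. The median Cy3 signal of an array ranged from 127.6 to 165.1, and the number of probes well above background from 11094 to 12767. The skeletal muscle label could be checked on 2 of its 7 markers, ACTA1, the skeletal muscle α-actin, and MYH1, the fast 2x myosin heavy chain, and both were well above background on all 20 arrays. The 20 arrays correlated with each other at 0.218 to 0.818 over the tested probes, and no pair correlated negatively.

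The array of LW replicate 8 stood apart from the others. Its position on the second principal component of the tested probes was -36.9, where the other 19 arrays lay between -6.48 and 11.7, and it received the lowest array weight of the 20, 0.366. It was the outlying LW pig on 629 tested probes (5.08%), followed by LW replicate 4 on 435 (3.52%) and B replicate 10 on 320 (2.59%), whereas the median array was outlying on 0.481% of them. Its ACTA1 level was -3.20, with the other 9 LW pigs at -0.80 or higher. B replicate 10 also had a low median correlation with the other arrays, 0.431, beside 0.449 for LW replicate 8 and a median of 0.61 over all 20. The count of all called probes and those of the gene lists are therefore given with and without LW replicate 8 where they differ, a choice made after the data were seen.

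The breeds differed in the level of 1344 of the 12374 tested probes in conventional housing (10.9%). Of these, 958 probes (7.74% of those tested) were higher in B and 386 (3.12%) were higher in LW. The median difference over all tested probes was 0.0083. Since the RNA came from whole muscle, a lower share of cells of a type and less RNA per cell of that type cannot be told apart here. Without LW replicate 8 the count was 1608 (13%), with 1093 higher in B and 515 (4.16%) higher in LW. Among the fits that left out 1 pig, the count was lowest without LW replicate 6, at 855, with 590 probes higher in B and 265 higher in LW.

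The balance between the directions moved with the scaling of the ratios. B was the higher breed for 71.3% of the called probes with the array median as the centre, but for 56.3% after loess normalisation within arrays (690 against 535), 60.3% with the scanner's own processed signals (699 against 460), 57.5% with the authors' processed ratios (654 against 484) and 52.8% with Cy3 intensity alone (450 against 402). The difference moved with the brightness of the probes. The tested probes were divided by brightness into 4 groups of nearly equal size. In the dimmest group the median difference was -0.033 and 37 probes were higher in B against 80 in LW, whereas in the brightest group it was 0.054 with 400 against 61. Loess removes such a trend by its construction, and after it the medians of the 4 groups lay between -0.0027 and 0.0015 and the brightest group held 238 against 129. The size of the excess of probes higher in B depends on the scaling, and its cause was not tested.

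**Figure D1:**
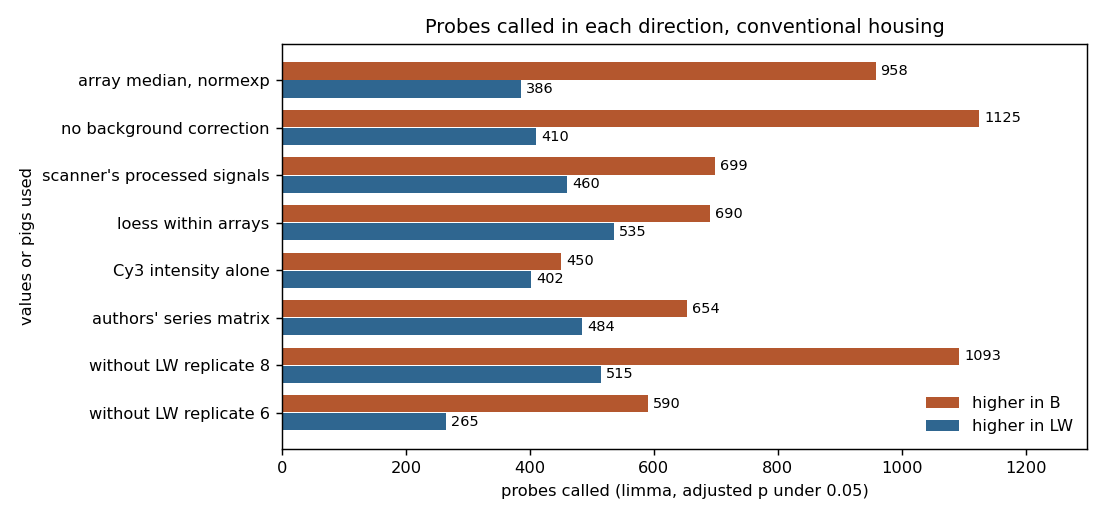
Number of probes called higher in B (brown bars) and higher in LW (blue bars) in conventional housing, by the values or pigs used; the horizontal axis counts probes with an adjusted p under 0.05 in limma and starts at 0. Among the bars shown, the count higher in B ran from 450 with Cy3 intensity alone to 1125 without background correction, and the count higher in LW from 265 without LW replicate 6 to 535 after loess.

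The breeds did not overlap on 83 of the 12253 probes with at least 8 values per breed (0.677%), that is, every pig of the higher breed lay above every pig of the lower breed. On 64 of these B lay above LW, and on 19 (0.155%) LW lay above B. All 83 were called in the model. Without LW replicate 8 the number was 135 of 12237 probes (1.1%), of which LW lay above B on 36, and with slide effects subtracted from the ratios it was 218, with LW above B on 52. With the scanner's processed signals it was 94, with LW above B on 34.

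Although the paper states that most probes of the array were linked to an annotated sequence, gene symbols were assigned here to a subset only. They were taken from a list that the study drew up of genes higher in LW, on these pigs together with those of the alternative system, so that the direction of the named probes is not independent evidence. This list named 683 tested probes of 598 genes. Of these, 234 (34.3%) were called in conventional housing, all of them higher in LW, against 3.12% of all tested probes called in that direction. The median difference over the 683 was -0.24. Without LW replicate 8, 292 of them were called. The remaining 11691 tested probes carried no symbol here, among them all 958 that were higher in B. The size of the differences depends on the signals used: of the 63 called probes chosen by the naming rule, 16 differences were over 1.5 times as large with the scanner's processed signals, and 18 with the authors' processed ratios. Over all alternative fits, those with these signals and ratios included, the called PFKP probe moved from -0.31 to as far as -0.78, and SMOC2 from -0.51 to -1.04. RRAS2 moved from -0.66 to as far as -1.22, and ARSB from -0.51 to -0.93. In the lists of genes described below, 68 of 180 named probes were called (37.8%). Among the fits that left out 1 pig this ranged from 50 without LW replicate 6 to 97 without LW replicate 8. The count of each list below is to be read beside these 37.8% and the 34.3% of all named probes.

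**Figure D2:**
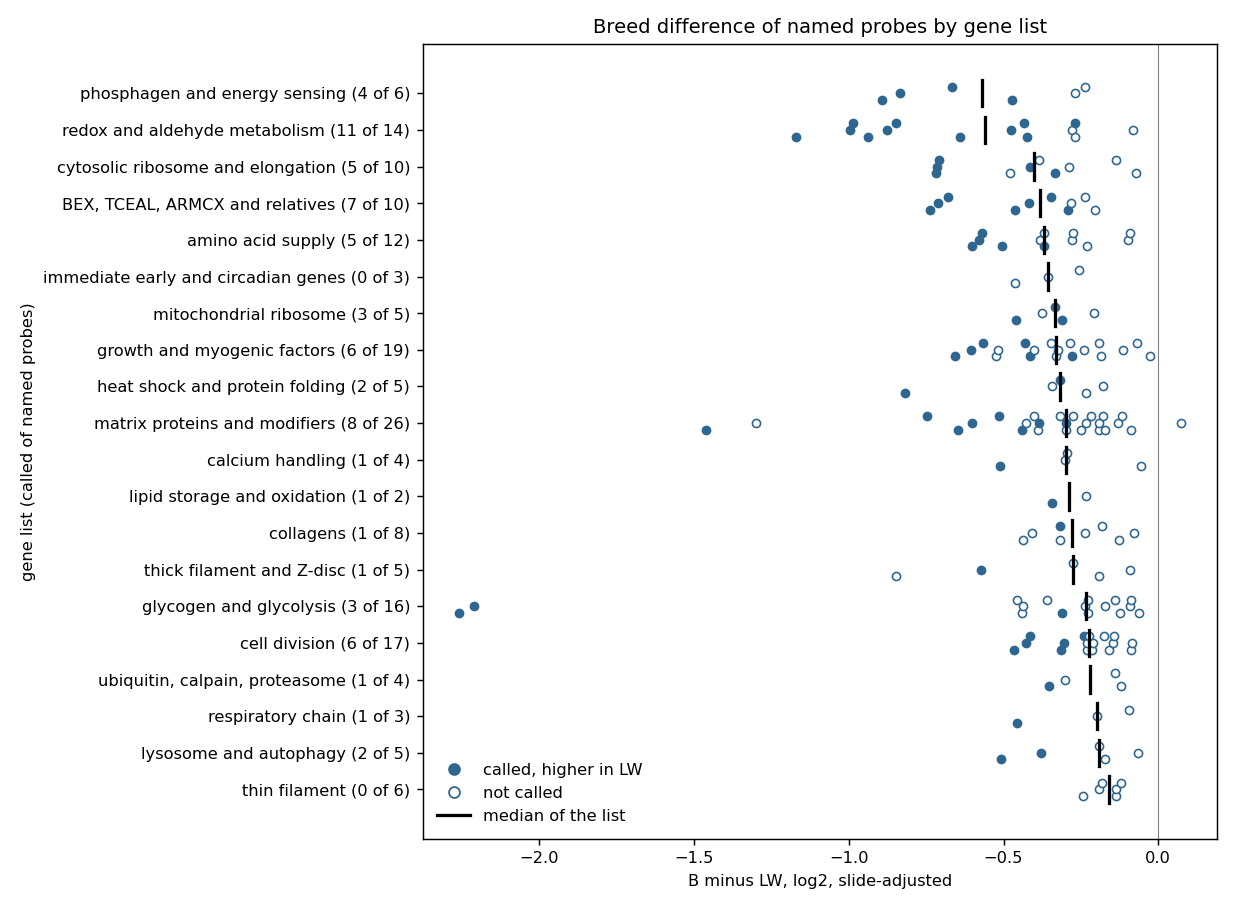
Difference B minus LW (log2, adjusted for slide) of every named probe in the 20 gene lists, with filled points for called probes, open points for probes not called and a black bar at the median of each list. The medians ran from -0.57 (phosphagen and energy sensing) to -0.16 (thin filament), and the only point above 0 is the FMOD probe at 0.075, which was not called and lay at -0.032 without LW replicate 8.

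PGM1 showed the largest difference of any named gene with the ratios used here. Across the other settings and the fits without 1 pig, PGM1 reached -2.56, and the non-coding RNA HCG11 reached -2.79. PGM1 encodes phosphoglucomutase, which converts glucose-1-phosphate released from glycogen into glucose-6-phosphate. Its level in B ranged from -2.17 to -1.76 with a median of -2.07, and in LW from -2.01 to 1.45 with a median of 0.33. In LW, 8 pigs lay between 0.17 and 1.45, and the other 2, replicates 3 and 9, lay at -2.01 and -1.88, within the range of the B pigs, so that the breeds overlapped through these 2 pigs only. The difference was -2.26 (SE 0.38, adjusted p = 0.0015), a 4.78-fold higher level in LW, and B was lower on all 6 slides, with differences within slides from -2.84 to -1.72. A further PGM1 probe gave -2.21 (SE 0.38, adjusted p = 0.00176) and the same 2 low LW pigs. The probes are not separate evidence, because their sequences differ in 1 base of 60. The last 30 bases of each are shown so that this near identity can be seen, with the differing base in capitals.
PGM1 probe BM194684.1_2327: ggatattaaagcaaaataagctaccaaaaa
PGM1 probe DN102972.1_585: ggatattaaagcaaaataagctaccTaaaa

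Few other probes of glycogen use and glycolysis were called. Apart from the PGM1 pair, 1 of the other 14 named probes of this list was called, and the median over its 16 probes was -0.23, beside -0.24 over all named probes. This probe belongs to PFKP, the platelet isoform of phosphofructokinase, with -0.31 (SE 0.082, adjusted p = 0.0227), while another PFKP probe gave -0.23 (adjusted p = 0.0766). GAPDH, an enzyme of the lower part of glycolysis, had a difference of -0.17 (SE 0.1, adjusted p = 0.324). LDHA, the lactate dehydrogenase chain of fast muscle, ranged from -2.38 to -0.52 in B and from -1.56 to -0.50 in LW. Its difference was -0.44 (SE 0.17, adjusted p = 0.113), and without LW replicate 8 it was -0.54 (adjusted p = 0.033). Without that pig 6 of the 16 probes were called, and in alternative housing 7 were, with a median of -0.40.

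The list of creatine kinases and energy sensing held 4 called of 6 named probes (median -0.57), and all 6 without LW replicate 8. SIRT3, a deacetylase of mitochondrial proteins, ranged from -0.73 to -0.19 in B (median -0.60) and from -0.054 to 0.56 in LW (median 0.29). The breeds did not overlap, and the difference was -0.83 (SE 0.072, adjusted p = 3.78e-06). PRKAB2, the β2 subunit of AMP-activated kinase found mainly in muscle, ranged from -0.79 to -0.34 in B and from -1.07 to 0.58 in LW. Its overlap came from LW replicate 7 alone, at -1.07, since the next LW pig lay at -0.13, above all B pigs. The difference was -0.89 (SE 0.14, adjusted p = 0.000732), and -0.67 (SE 0.11, adjusted p = 0.00125) for a probe 60 bases away on the same transcript contig. CKB, the brain-type creatine kinase, gave -0.47 (SE 0.12, adjusted p = 0.016) with 1 probe and -0.24 (SE 0.076, adjusted p = 0.0557) with another.

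**Figure D3:**
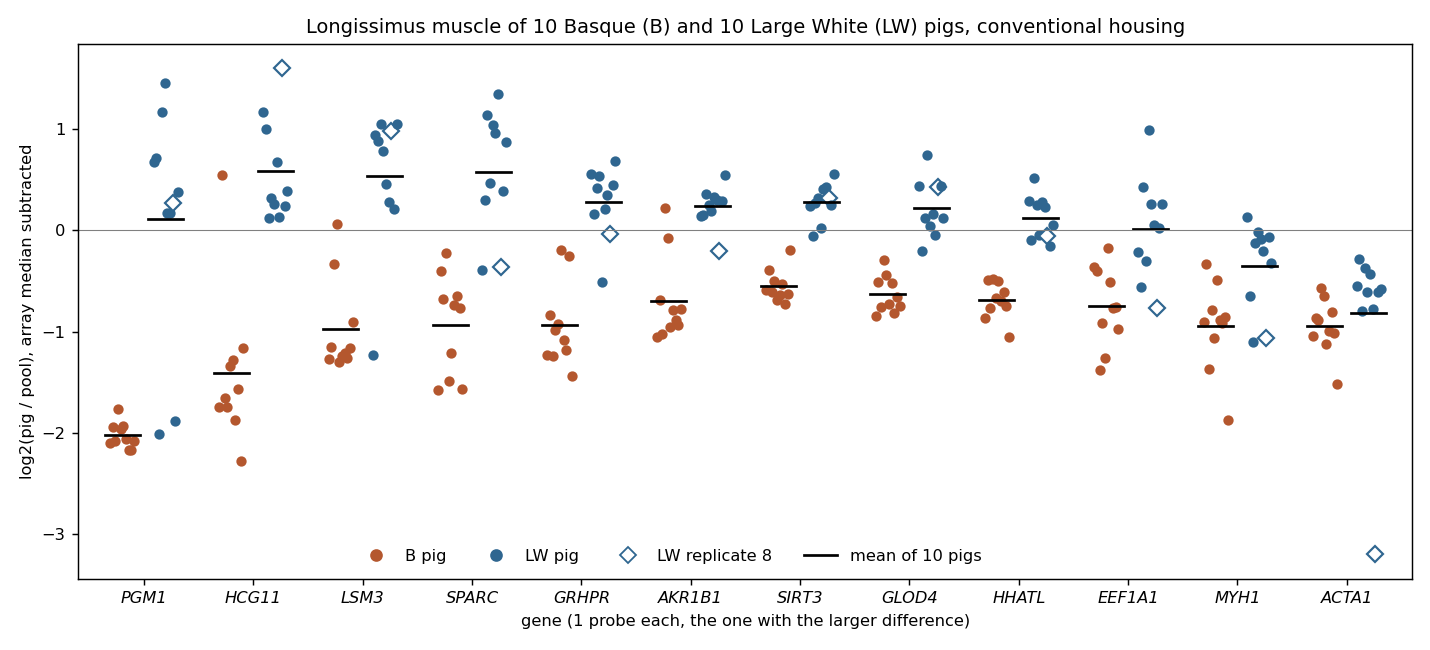
Level of 12 named genes in each of the 20 pigs as log2(pig / pool) with the array median subtracted (vertical axis); brown points are B pigs, blue points LW pigs, the open diamond LW replicate 8 and the black bars the means of 10 pigs. The breeds do not overlap for SIRT3, GLOD4 and HHATL, 2 LW pigs lie at the B level for PGM1, and LW replicate 8 lies at -3.20 for ACTA1.

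Enzymes that handle peroxides and reactive aldehydes formed the list with the largest share of called probes among those with more than 10. Of 14 named probes 11 were called, with and without LW replicate 8, and the median was -0.56. GRHPR, which reduces glyoxylate and hydroxypyruvate, ranged from -1.44 to -0.19 in B (median -1.03) and from -0.51 to 0.68 in LW (median 0.38), with a difference of -1.17 (SE 0.18, adjusted p = 0.000732). A single LW pig reached into the B range. AKR1B1, the aldose reductase, differed by -0.99 (SE 0.13, adjusted p = 0.0003). All but 2 of the B pigs lay below the lowest LW pig. GPX8, a glutathione peroxidase of the endoplasmic reticulum, gave -0.995 (SE 0.19, adjusted p = 0.00356), with medians of -1.06 in B and -0.028 in LW. GLOD4, a protein with glyoxalase domains, separated the breeds with both of its probes. One ranged from -0.69 to -0.27 in B and from 0.0078 to 0.33 in LW, and differed by -0.64 (SE 0.058, adjusted p = 5.01e-06). For the other probe this value was -0.88 (SE 0.11, adjusted p = 0.000138). ESD, an esterase that releases formate in the disposal of formaldehyde, showed how probes of a gene can differ in size: its 3 probes gave -0.94 (adjusted p = 0.00468), -0.43 (adjusted p = 0.0183) and -0.27 (adjusted p = 0.0505). The probes of this list that were not called belonged to CBR1, ALDH16A1 and the last of ESD.

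In the thin filament the calls depended on LW replicate 8. None of the 6 named thin filament probes was called (median -0.16). Without LW replicate 8 the median was -0.26 and 3 were called, those of ACTA1, ACTA2 and FHOD3. ACTA1 ranged from -1.52 to -0.57 in B (median -0.94) and from -3.20 to -0.28 in LW (median -0.59). Its difference was -0.14 (SE 0.28, adjusted p = 0.823) with all pigs and -0.43 (SE 0.11, adjusted p = 0.0149) without LW replicate 8, and it was 0.0103 without LW replicate 4, which lies on the same slide. ACTA2, the smooth muscle α-actin, moved in the same way, from -0.12 (adjusted p = 0.833) to -0.39 (adjusted p = 0.0225). The α-actins share most of their coding sequence, and which of them the ACTA2 probe measured was not tested. TPM1 and TPM3, the tropomyosins of fast and slow fibres, had differences of -0.24 (adjusted p = 0.151) and -0.14 (adjusted p = 0.369), and NEB, the nebulin that spans the thin filament, had -0.18 (adjusted p = 0.257).

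Of the 5 named probes of the thick filament and the Z-disc, 1 was called (median -0.28). MYH1 ranged from -1.87 to -0.33 in B (median -0.89) and from -1.10 to 0.13 in LW (median -0.17). Its difference was -0.57 (SE 0.18, adjusted p = 0.0483), B was lower on all 6 slides, and the ranges overlapped. The call was close to the threshold: it held in 11 of 17 other settings and in 5 of the 20 fits that left out 1 pig (those without B replicate 1 and without LW replicate 10, alone together on a slide, are the same fit), and the highest adjusted p among all these fits was 0.188. MYH3, the embryonic myosin heavy chain, had a difference of -0.85 (SE 0.35, adjusted p = 0.139), with medians of -0.83 in B and -0.11 in LW and the highest LW pigs, replicates 10 and 4, at 2.93 and 1.59. ANKRD1, a titin-binding stress protein of the sarcomere, varied widely among pigs of both breeds, from -3.08 to 0.56 in B and from -2.67 to 1.12 in LW, with a difference of -0.19 (SE 0.37, adjusted p = 0.813). It turned to 0.0113 without LW replicate 4 and to 0.06 without LW replicate 6.

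Calcium handling was represented by 4 named probes, of which 1 was called (median -0.30). It measures CASQ2, a calsequestrin that binds calcium inside the sarcoplasmic reticulum, with a difference of -0.51 (SE 0.15, adjusted p = 0.0344) that was called in 12 of 17 other settings and 9 of 20 fits without 1 pig. ATP2A1, the calcium pump of fast fibres, had -0.30 (SE 0.13, adjusted p = 0.157).

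Proteins of the extracellular matrix contributed large single differences. SPARC, a collagen-binding glycoprotein, ranged from -1.58 to -0.22 in B (median -0.75) and from -0.39 to 1.35 in LW (median 0.67). The difference was -1.46 (SE 0.25, adjusted p = 0.0018), a 2.76-fold higher level in LW. LW replicates 1 and 8 were the only LW pigs within the B range. Another SPARC probe gave -0.65 (SE 0.12, adjusted p = 0.00441). SMOC2, a relative of SPARC, ranged from -0.33 to -0.17 in B and from 0.00125 to 0.48 in LW without overlap, with a difference of -0.51 (SE 0.058, adjusted p = 5.73e-05). DPT, the small matrix protein dermatopontin, had -0.75 (SE 0.17, adjusted p = 0.00992) and -0.44 (SE 0.11, adjusted p = 0.0134) with its 2 probes, and 9 of 10 LW pigs lay above every B pig for the first. LEPREL4, a component of the collagen prolyl hydroxylation machinery, had -0.60 (SE 0.15, adjusted p = 0.0175).

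Over this matrix list as a whole, 8 of 26 named probes were called (median -0.30), beside 34.3% of all named probes, and 15 without LW replicate 8. The small proteoglycan DCN, decorin, was not among them, with -0.23 (SE 0.15, adjusted p = 0.356). Nor was DST, dystonin, with -0.19 (SE 0.072, adjusted p = 0.104). ADAMTS8, a secreted metalloprotease, had the widest spread of the list, from -4.19 to -0.88 in B and from -3.51 to 1.55 in LW, and its difference of -1.30 (SE 0.64) was not called (adjusted p = 0.212). Of the 8 collagen probes 1 was called, that of COL18A1, a basement membrane collagen, with -0.32 (SE 0.095, adjusted p = 0.0394), which held in 11 of 17 other settings and 9 of 20 fits without 1 pig. COL1A2, a chain of the main fibrillar collagen, had -0.32 (SE 0.27, adjusted p = 0.508) and -0.18 (SE 0.12, adjusted p = 0.359). COL5A3, COL6A3 and COL4A2 had -0.24, -0.13 and -0.079 (adjusted p = 0.145, 0.587 and 0.755). With LW replicate 8 left out, the first COL1A2 probe moved to -0.51 (adjusted p = 0.133). COL6A3 and COL4A2 both moved to -0.19, and none of these was called. Without LW replicate 8, which was the lowest LW pig on all 8 collagen probes, 3 collagen probes were called, with COL15A1 at -0.56 (adjusted p = 0.00301) and COL16A1 at -0.55 (adjusted p = 0.00394) beside COL18A1.

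Fibroblast markers could be followed only where the study's list of genes higher in LW names them, so that their direction is not independent evidence. The mean over the 6 named probes of the 4 fibroblast markers found (COL1A2, DCN, DPT and PDGFRB, of 9 in the list) was -0.35 ± 0.23 in B (SD, n = 10), from -0.73 to 0.022. In LW it was 0.055 ± 0.37 (SD, n = 10), from -0.90 in LW replicate 8 to 0.37. The difference of PDGFRB, a receptor that the matrix list does not hold, was -0.28 (SE 0.085, adjusted p = 0.0439). Part of this marker list overlaps the matrix list, and the part that fibroblast content plays in the matrix differences was not tested. The mean of the myofibre markers ACTA1 and MYH1 was -0.95 ± 0.30 in B and -0.59 ± 0.58 in LW (SD, n = 10), and -0.41 in LW without replicate 8. Of the markers of smooth muscle and pericytes, MYL9 was called (-0.37, SE 0.092, adjusted p = 0.016) and ACTA2 was not. The macrophage marker STAB1 (-0.18, adjusted p = 0.163), the satellite cell marker NCAM1 (-0.12, adjusted p = 0.365) and the haemoglobin chain HBA2 (-0.20 and -0.24, adjusted p = 0.792 and 0.768) were not called. Without LW replicate 8 the HBA2 probes gave -0.0495 and -0.0763. No probe was named for markers of fat cells, endothelium, T cells, B cells or Schwann cells, so that a change in these cell types was not analysed here.

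Cytosolic protein synthesis was represented by ribosomal proteins and elongation factors. Of 10 named probes of the cytosolic ribosome and elongation 5 were called (median -0.40). Of these, 4 belong to EEF1A1, which delivers aminoacyl-tRNA to the ribosome, and 1 to EEF2K, the kinase that inhibits elongation factor 2, with -0.42 (SE 0.099, adjusted p = 0.0126). None of the 5 ribosomal protein probes was called, and the largest difference among them was that of RPS19 at -0.48 (SE 0.16, adjusted p = 0.0661). Without LW replicate 8 RPS19 was called as well (-0.53, adjusted p = 0.0429), which made 6 of 10. The first EEF1A1 probe ranged from -1.38 to -0.17 in B (median -0.76) and from -0.77 to 1.00 in LW (median 0.040). It differed by -0.72 (SE 0.15, adjusted p = 0.00512). Altogether 3 of the 4 probes gave values between -0.72 and -0.71, while the last gave -0.33 (SE 0.086, adjusted p = 0.0199). The sequences show why the 3 are not separate measurements: their last 30 bases are shown with bases that differ from the first in capitals, and the last probe, which lies elsewhere on the transcript, shares no run longer than 5 bases with the first.
EEF1A1 probe BM194705.1_1868: tgtcacagaattttgagacccattaaaaaa
EEF1A1 probe BE032885.1_113: tgtcacagaattttgagacccattaaaaaa
EEF1A1 probe CA778534.1_143: tgtcacaTaattttTagacccattaaaaaa
EEF1A1 probe AJ656656.1_81: gcctgcaagtttgctgaactgaaggagaag

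In mitochondria, 3 of 5 named probes of the mitochondrial ribosome were called (median -0.33), for MRPL41, MRPL36 and MRPL51 with differences of -0.46 (SE 0.12), -0.33 (SE 0.1) and -0.31 (SE 0.08). MRPL36, with an adjusted p of 0.0486, was not called without LW replicate 8 (0.0704) and was called in 5 of the 20 fits without 1 pig. The list as a whole held 4 called probes without LW replicate 8. Of 3 named probes of the respiratory chain 1 was called, for ATP5E, the ε subunit of ATP synthase, with -0.46 (SE 0.08, adjusted p = 0.00192). The lipid list held 2 named probes only. That of AGPAT3, an acyltransferase of phospholipid synthesis, separated the breeds, from -0.46 to -0.18 in B and from -0.16 to 0.36 in LW, with a difference of -0.34 (SE 0.061, adjusted p = 0.00198).

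Protein breakdown and folding were covered thinly. CAST, the inhibitor of the calpain proteases, was the only called probe of 4 in the list of ubiquitin ligases, calpains and proteasome (median -0.22), which held 2 without LW replicate 8. It ranged from -0.40 to 0.35 in B and from -0.062 to 0.70 in LW, with a difference of -0.35 (SE 0.086, adjusted p = 0.0145) that was called in 12 of 17 other settings and in all fits without 1 pig except that without LW replicate 6 (-0.32, adjusted p = 0.05). In the lysosome, ARSB, a sulfatase of glycosaminoglycan breakdown, had -0.51 (SE 0.12, adjusted p = 0.0128) and SCARB2, a lysosomal membrane protein, -0.38 (SE 0.1, adjusted p = 0.0269), 2 called of 5 (median -0.19) and 4 of 5 without LW replicate 8. Of 5 probes for heat shock and folding 2 were called (median -0.32; 3 without LW replicate 8), among them BAG3, a co-chaperone of filamin turnover at the Z-disc, with -0.82 (SE 0.21, adjusted p = 0.0184). Its levels ranged from -1.68 to 0.18 in B and from -0.95 to 0.34 in LW.

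Growth signalling and amino acid supply held 6 of 19 and 5 of 12 called probes, with medians of -0.33 and -0.37, and 9 and 7 without LW replicate 8. The share called among all named probes was 34.3%. MEF2C, a transcription factor of muscle genes, was called with both probes, at -0.61 (SE 0.15, adjusted p = 0.015) and -0.43 (SE 0.12, adjusted p = 0.0278). RRAS2, a small GTPase of the RAS family, had -0.66 (SE 0.16, adjusted p = 0.0155), with LW replicate 4 at 1.46 above all other pigs, and BTC, a ligand of the EGF receptor, had -0.57 (SE 0.15, adjusted p = 0.0228). The growth factor IGF1 was not called, at -0.29 (SE 0.12, adjusted p = 0.14), but was without LW replicate 8 (-0.36, adjusted p = 0.0363). SLC7A2, a carrier of arginine and lysine, was called with 2 of its 3 probes, at -0.60 (SE 0.12, adjusted p = 0.00472) and -0.57 (SE 0.11, adjusted p = 0.00274), whereas the remaining probe had -0.091 (adjusted p = 0.59). GCSH, a part of the glycine cleavage system, had -0.58 (SE 0.12, adjusted p = 0.00647) and PSAT1, an enzyme of serine synthesis, -0.50 (SE 0.15, adjusted p = 0.0394; called in 5 of the 20 fits without 1 pig), while ASNS, asparagine synthetase, had -0.38 (SE 0.16, adjusted p = 0.135), and -0.49 (adjusted p = 0.0294) without LW replicate 8.

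Cell division genes held 6 called of 17 named probes with and without LW replicate 8 (median -0.23), beside 34.3% of all named probes (median -0.24). The largest differences were those of GINS2, a part of the replicative helicase, at -0.47 (SE 0.12, adjusted p = 0.017) and DCTN3, a dynactin subunit, at -0.43 (SE 0.099, adjusted p = 0.0107). With the scanner's processed signals these were -1.04 and -1.26, and 8 of 10 B arrays were well above background for DCTN3, so that the size of these differences depends on the processing. In the list of BEX, TCEAL and ARMCX genes, small families of the X chromosome, and their relatives, 7 of 10 named probes were called (median -0.38) and 8 without LW replicate 8. BEX1 ranged from -1.05 to -0.495 in B and from -0.435 to 0.64 in LW without overlap, with a difference of -0.68 (SE 0.12, adjusted p = 0.00202). BEX4 had -0.71 (SE 0.11, adjusted p = 0.000732). The largest difference of the list, -0.74 (SE 0.12, adjusted p = 0.000864), was that of NAP1L5, a histone chaperone relative that is autosomal. None of the 3 named probes of immediate early and circadian genes was called (median -0.36, and -0.17 without LW replicate 8), and the median within slides ran from -0.905 to 0.415.

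Several of the largest differences lay outside these lists. HCG11, a non-coding RNA, ranged from -2.28 to 0.55 in B (median -1.62) and from 0.12 to 1.60 in LW (median 0.35). B replicate 2, at 0.55, was the only B pig within the LW range, and the difference was -2.03 (SE 0.3, adjusted p = 0.000541). LSM3, a subunit of a splicing complex, showed the reverse exception. LW replicate 1 lay at -1.23 among the B pigs, whereas the other 9 LW pigs lay between 0.21 and 1.05, with a difference of -1.66 (SE 0.24, adjusted p = 0.000485). ZNF7, a zinc finger protein, was split within B: replicates 3, 4, 5 and 9 lay between -1.92 and -1.79, and the other 6 B pigs between -0.40 and 0.26. Of these 6, 2 lay within the range of the LW pigs (-0.045 to 0.71) and 4 just below it. Since 6 of 10 B arrays were well above background for it, the size of the difference, -1.06 (SE 0.28, adjusted p = 0.021), is uncertain. It was -2.56 with the scanner's processed signals and not called (adjusted p = 0.0629), nor was it called without LW replicate 6 (-0.999, adjusted p = 0.0605). C16ORF74 had -1.04 (SE 0.19, adjusted p = 0.00237), with 8 of 10 B arrays well above background, and -2.10 with the processed signals. HHATL, a membrane protein of striated muscle related to acyltransferases, ranged from -1.05 to -0.48 in B and from -0.16 to 0.51 in LW without overlap, with a difference of -0.77 (SE 0.088, adjusted p = 5.73e-05). A second HHATL probe gave -0.37 (SE 0.063, adjusted p = 0.00172), and there the breeds overlapped. Among probes without a symbol, CA778534.1_73, on the same transcript contig as an EEF1A1 probe, had -1.42 (SE 0.25, adjusted p = 0.00179).

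LW lay above B without overlap on 13 of the 683 named probes, of 12 genes, and on 19 of all 12253 probes (0.155%), where the named probes were chosen as higher in LW. Besides SIRT3, GLOD4 with both probes, SMOC2, AGPAT3, BEX1 and HHATL these were CCDC50, COBL, PARVB, POP4, RBM19 and STRA13, named here because their pigs did not overlap. All 13 were called.

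The probes higher in B carry no symbol, and 2 of them are given by probe identifier. BI339314.1_653 ranged from -0.58 to 0.39 in B (median 0.22) and from -2.09 to -0.79 in LW (median -1.45), without overlap. Its difference was 1.56 (SE 0.15, adjusted p = 1e-05), and B was higher on all 6 slides. CA779460.1_1088 ranged from -1.37 to 0.29 in B and from -2.94 to 0.053 in LW, with a difference of 1.51 (SE 0.33, adjusted p = 0.00717). LW replicates 2 and 6, at 0.053 and -0.29, were the LW pigs among most B pigs, and 1 of 6 slides went the other way. The last 30 of the 60 bases of the first of these probes are shown, since no symbol is given for it here.
BI339314.1_653: ttgagtcagctacttgttcctgtgcccttg

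Among the named genes, 75 had more than 1 probe. All probes of a gene were called for 29 of them, some for 16 and none for 30. Of the genes fixed to be named whatever their result, FOS, LIPE, FABP3, PPARD, FHL3, ZNF24, FBXO32, TRIM63 and MYH7 had no named probe and were not analysed here.

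The pigs of the alternative system gave a check in animals that the comparison above did not use, although each of them was a littermate of a conventionally housed pig. There, 528 of the 12374 probes were called for breed (4.27%), 207 higher in B and 321 (2.59%) higher in LW. This count was 1532 without background correction, where most were higher in B (880 against 652), 1605 with the authors' processed ratios (753 against 852) and 915 in a model of all 40 arrays (368 against 547). Of the 1344 probes called in conventional housing, 1300 (96.7%) had the same direction in the alternative system, against 68.2% of the 11030 probes not called. In both systems 324 were called, which is 24.1% of the 1344 and 61.4% of the 528. They were 134 of the 958 probes higher in B (14%) and 190 of the 386 higher in LW (49.2%), and no probe was called in opposite directions.

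No difference between the breed effects of the 2 housing systems was detected for any probe. The interaction of breed and housing was called for 0 of 12374 probes (0%) in limma, and 320 probes had an unadjusted p under 0.05. Litter was not a term of this model, since the sample labels do not give it. Counts of called probes that differ between the systems are thus not shown to be a difference in the breed effect. The pigs of the alternative system also entered the list that gave the symbols, so the direction of named probes there is not independent evidence. PGM1 had a difference of -2.04 (adjusted p = 0.0119) in alternative housing, SPARC -1.44 (adjusted p = 0.000517), SIRT3 -1.04 (adjusted p = 1.36e-05) and MYH1 -0.80 (adjusted p = 0.0671). ADAMTS8 and ANKRD1 stood further apart, at -2.54 (adjusted p = 0.011) and -1.86 (adjusted p = 0.0485), and ANKRD1 had the lowest interaction p of the named probes, 0.00887, with an adjusted p of at least 0.971 for each of them.

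**Figure D4:**
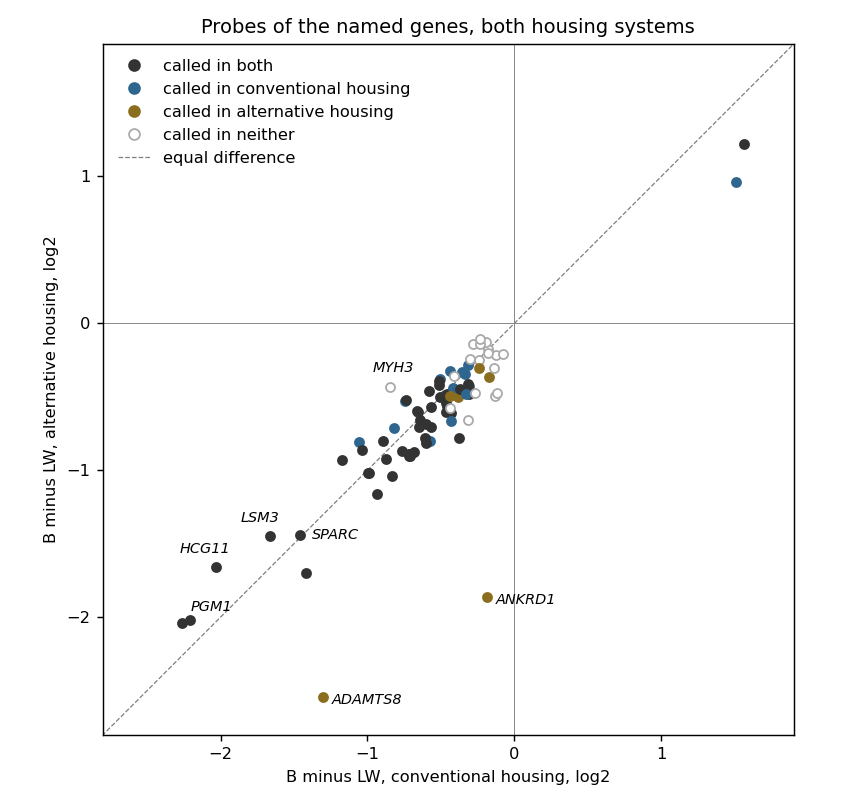
Difference B minus LW (log2) of 3 probes without a symbol and of the probes that the naming rule chose (FMOD is not among them) in conventional housing (horizontal axis) and in the other 20 pigs in alternative housing (vertical axis); the dashed line marks equal differences and the colours the housing system in which a probe was called. Every point shown has the same sign on both axes, and ANKRD1 lies furthest from the line, at -0.19 and -1.86. The probes with a symbol come from the study's list of genes higher in LW, drawn on all 40 pigs. Their shared negative sign is therefore not independent evidence.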

How the data were processed

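Each of the 20 arrays held the RNA of 1 pig in Cy3 beside the pool in Cy5, always with these dyes, so that a dye effect specific to a probe is shared by both breeds. The spot and background intensities were deposited by the authors as the scanner software wrote them (Agilent Feature Extraction 9.5), without normalisation, together with processed intensities in which that software had subtracted background and balanced the dyes. The 0 or 1 marks for other properties of a spot (well above background, saturated, outlier) are likewise as deposited. The log2 ratios of the processed table were made by the authors, who filtered spots, centred each array on its median and applied a quantile step of limma. The medians of its 20 arrays lay between -0.015 and 0.012, and it correlated at 0.985 to 0.997 with ratios of the processed intensities, which gave its scale and direction, but at 0.599 to 0.847 with the ratios used here, so it served as an alternative only.

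Background was corrected with normexp (offset 50), log2(Cy3/Cy5) was centred on the array median, the 1634 outlier spots were dropped, and 50 saturated spots were kept. Breed and slide (6 slides, each with both breeds) were fitted with limma 3.58.1 in R 4.3.3, and p-values were adjusted by Benjamini-Hochberg. They measure the spread between pigs, since each pig had 1 array, and the number of arrays limits precision. The procedure was run on simulated data with known differences and independent noise on each probe. These data held no outlying array and no trend with brightness, so the run cannot show how either affects the counts. The symbols of the 683 named probes were checked only on transcript contigs with several listed probes, where 40 of 40 contigs carried 1 symbol. Symbols of the other probes were not checked, and none was compared with a probe sequence. The study's list of genes higher in B failed the contig check and was not used.

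The members and the gene lists were chosen with earlier results of these data known. Named probes are the 8 called probes with the largest difference in each direction, of which fewer are given where no symbol is known, up to 4 called probes of each of 20 gene lists, and a list of genes given whatever their result. Cell type markers came from 11 further lists. RPS19, CBR1, ALDH16A1, FHOD3, FMOD and the second probes of some genes, outside this rule, were named after their values were seen, as were the genes named only because the breeds did not overlap. Alternatives covered background, scaling, filters, marked spots, slide, scan day, array weights and a replicate block. No sign that replicate numbers pair the pigs was found. With the mean of each breed subtracted from every probe, the correlations of the 10 pairs of equal number ran from -0.358 to 0.088, and 0 pigs correlated best with their own number. A pairing that leaves no correlation between levels would not be seen in this way. The amount of RNA labelled is stated differently in the sample descriptions and in the methods, which enters no value here.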

Additional observations from a re-analysis of the deposited data

Results flagged for a closer look

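Pigs far from the other pigs of their breed were sought on the 87 named probes, by the gap between the highest or lowest pig and its nearest neighbour relative to the range of the breed (Dixon's criterion). This picked out 27 values in 174 groups, where chance picks out about 1 in 20 groups. Over all tested probes it picked out 2347 of 24748 groups (9.48%).

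LW replicate 8 accounted for 14 of the 27, each time as the lowest LW pig. Its values were -3.2 for ACTA1, -2.75 for ACTA2, -1.34 for COL15A1, -0.753 for COL16A1, -1.56 for COL1A2, -1 for COL4A2 (9 LW values), -1.35 and -0.927 for the probes of DPT, -0.621 for HAUS1, -0.471 for IGF1, -1.56 for LDHA, -1.28 for LEPREL4, -0.576 for PSAT1 and -0.598 for SLC7A2. Among the other LW pigs, replicate 1 lay far below the rest for LSM3 (-1.23), and replicate 7 for both PRKAB2 probes (-0.877 and -1.07). Replicate 4 lay far above the rest for ANKRD1 (1.12) and RRAS2 (1.46).

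In B, replicate 10 was far above the other B pigs for BEX4 (-0.153) and far below them for DCN (-0.908) and TPM1 (-1.02). Replicate 2 was far above for HCG11 (0.546) and replicate 5 for SLC7A2 (0.138). Replicate 3 was far below for TCEAL8 (-0.733), replicate 5 for BI339314.1_653 (-0.578) and replicate 7 for CA779460.1_1088 (-1.37).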

How the results depend on the processing

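Under 17 other ways of processing the 87 named probes gave 1474 values, of which 1402 kept their direction and their side of the threshold. In 45 a call was lost, in 27 it was gained, and in 0 the direction turned. Of the 63 called probes, 45 were called under every one of these in which they were tested. Sizes moved more: 16 of the 63 differences were over 1.5 times as large with the scanner's processed signals (up to 2.94 times) and 18 with the authors' processed ratios (up to 2.66 times). The count of called probes left the range within 1.5 times of 1344 under 1 of them, Cy3 intensity alone, with 852. Without the slide term the count was 1587, and with the replicate number as a block in its place 1319, although no sign of a pairing by number was found.

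In alternative housing the count was 528, but 1532 without background correction, 1605 with the authors' processed ratios and 915 from the contrast in the model of all 40 arrays. Probes without overlap numbered 218 instead of 83 after subtraction of the slide terms. The cause of these changes was not tested.

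Leaving out 1 pig at a time was added after the data were seen. The fits without B replicate 1 and without LW replicate 10 are the same, since these share a slide with no other pig. The count then ran from 855 (without LW replicate 6) to 1608 (without LW replicate 8), and probes without overlap numbered 135 without LW replicate 8. Of 1740 values of named probes 1623 kept direction and side of the threshold, 97 lost a call, 17 gained it and 3 turned their direction. ANKRD1 ran from -0.403 (without LW replicate 8) to 0.06 (without LW replicate 6), and was 0.0113 without LW replicate 4. ACTA1 ran from -0.433 (without LW replicate 8) to 0.0103 (without LW replicate 4). Neither was called with all 20 pigs. With the filter on dim probes left out, 1254 of 15190 probes were called. The limit that signal over background sets for faint probes was not tested.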
